A study of Homo sapiens with 6 samples.

Results

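The mRNAs of 10 genes were examined in MCF10A cells, an immortalized human line of breast epithelium. Of these, 7 encode histone variants, and the remaining 3 encode proteins that control the mRNAs of the replication-dependent histones. The 7 variant genes were H2AFX, H2AFZ, H2AFV, H2AFY, H3F3A, H3F3B and H1F0, and the 3 regulators were SLBP, NPAT and CASP8AP2. The genes were taken by exact symbol from a table of 26822 distinct symbols, as a list of names and not by a limit on measured values, with earlier results of these data known. For all 10 of the 10, the table held 1 row, and that row carried no other symbol. Relative to a non-targeting control (siNT), cells received siRNAs targeting the transcription factor PAX9 (siPAX9), both at 30 nM for 72 hours, with 3 samples in each group. Poly(A)+ RNA was sequenced, and the deposited table gives 1 FPKM (mapped fragments corrected for transcript length and library size) per gene and group. It holds no value for a single sample, so the values are given without an error and no difference was tested over samples, and it does not give the number of reads behind a value.

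Most histone mRNA is made in S phase, when new DNA must be packaged. The genes for these replication-dependent histones have no introns, and their mRNAs end in a stem-loop in place of a poly(A) tail. NPAT drives their transcription in the histone locus body, CASP8AP2 (FLASH) acts there in the processing of their 3′ ends, and SLBP binds the stem-loop and accompanies the mRNA from processing to translation. Histone variants are instead supplied through the cell cycle, mostly from ordinary polyadenylated mRNAs, and replace the standard histones at particular places. In a poly(A)+ library the polyadenylated mRNAs of variants and regulators are therefore captured directly. A replication-dependent histone is seen only as far as its transcripts carry a poly(A) tail.

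H2AFX is the member that belongs partly to both classes, since its mRNA is known both with a stem-loop and with a poly(A) tail. Its FPKM in this poly(A)+ RNA therefore reflects mainly the form with a poly(A) tail. The stem-loop was looked for in the annotated coding transcripts (GENCODE on GRCh37) as a stem of 6 bases that begins with GG, a loop of 4 bases that begins with TTT, and the exact reverse complement of the stem. It was found in H2AFX and in no other of the 10 genes. By the same search it was present in 62 of 66 replication-dependent histone genes, and in 94 of 19807 coding genes (0.475%). The site of H2AFX is given beside those of the 3 replication-dependent histone genes with the highest mean FPKM of both groups among those at a row of their own, with the stem and loop in capitals and 5 flanking bases, or as many as the transcript has, on each side. All are on GRCh37 and written 5′ to 3′ on the strand of the gene.
H2AFX, chr11:118965603-118965628, minus strand: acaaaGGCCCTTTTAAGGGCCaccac
HIST1H2BK, chr6:27114140-27114165, minus strand: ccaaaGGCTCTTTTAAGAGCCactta
HIST1H1C, chr6:26055968-26055992, minus strand: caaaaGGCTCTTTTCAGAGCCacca
HIST3H2A, chr1:228645065-228645090, minus strand: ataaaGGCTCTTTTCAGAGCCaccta
The annotated transcript continues past the printed bases for 1019 bases in H2AFX and 385 bases in HIST3H2A, and it ends with them in HIST1H2BK and HIST1H1C.

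At the level of FPKM, 9 of the 10 genes were less than 2-fold apart between the groups, and H2AFZ was the exception. With 1 pooled value per group, genes were counted by whether their FPKM differed at least 2-fold. At least 2-fold lower in siPAX9 was 1 of the 10 genes, against 6.55% (805) of the 12288 named loci with a mean FPKM of at least 1, a level that all 10 genes passed. At least 2-fold higher was 0 of the 10 genes, against 6.22% (764) of the named loci. One gene of 10 is close to these shares, so the count by itself does not set the genes apart. The median log2 ratio of siPAX9 to siNT was -0.35 over the 10 genes and -0.07 over the named loci. Below 0 were 8 of the 10 genes, and 4 of them (H2AFX, H2AFZ, H2AFV and H2AFY) lay under the lower quartile of the named loci, at -0.41. None lay above the upper quartile, at 0.28. After centring on the median of the named loci, 7 of the 10 genes were below the centre, because CASP8AP2 moved from -0.02 to 0.05. Since RNA came from whole cultures, fewer cells expressing a gene and less RNA per cell cannot be told apart.

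**Figure D1:**
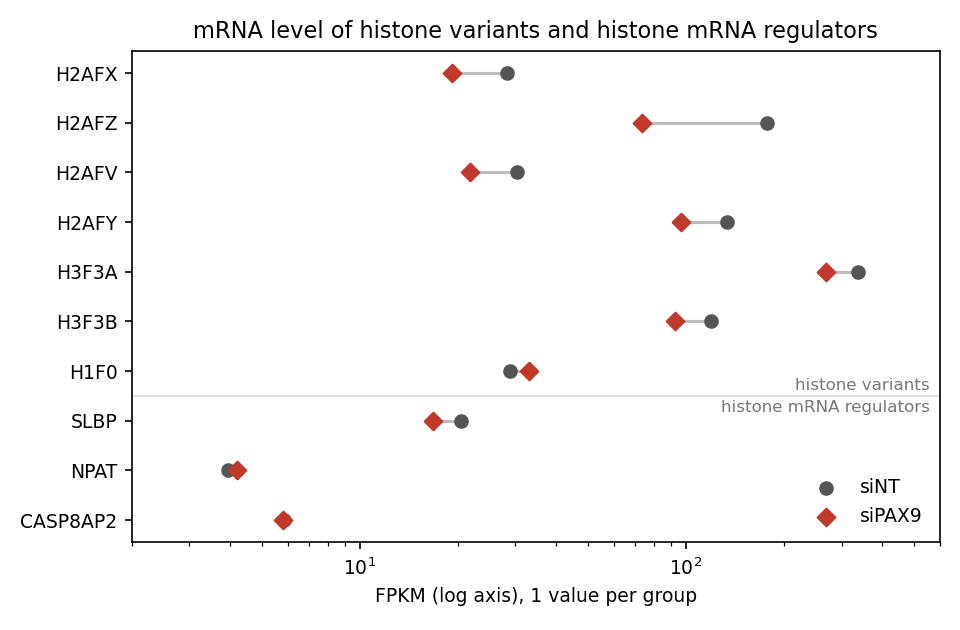
FPKM of each gene (log axis) in siNT (grey circles) and siPAX9 (red diamonds), 1 pooled value per group, so no error is drawn. The widest gap is that of H2AFZ, from 177 in siNT to 73.1 in siPAX9, while the symbols of CASP8AP2 lie on each other.

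H2A.Z is the H2A variant placed near transcription start sites and at regulatory elements, and it is encoded by a pair of genes, H2AFZ (H2A.Z.1) and H2AFV (H2A.Z.2). H2AFZ (chr4:100869243-100871512 on hg19, 5 exons, minus strand) had 177 FPKM in siNT and 73.1 FPKM in siPAX9. The siPAX9 level was 0.413 of the siNT level, a log2 ratio of -1.27. Only 3.87% of the named loci had a lower ratio. With 1 added to each FPKM the log2 ratio was -1.26, and after centring it was -1.20. H2AFV (chr7:44866418-44887725, 5 exons, minus strand) had 30.4 FPKM in siNT and 21.8 FPKM in siPAX9, a log2 ratio of -0.48. H2AFZ was thus the more abundant of the pair in both groups, and its ratio was lower than that of H2AFV by 0.79 on the log2 scale. Summed over both genes, H2A.Z mRNA had 207 FPKM in siNT and 94.9 FPKM in siPAX9, a log2 ratio of -1.13. The share of H2AFV in this sum was 14.7% in siNT and 23.0% in siPAX9.

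**Figure D2:**
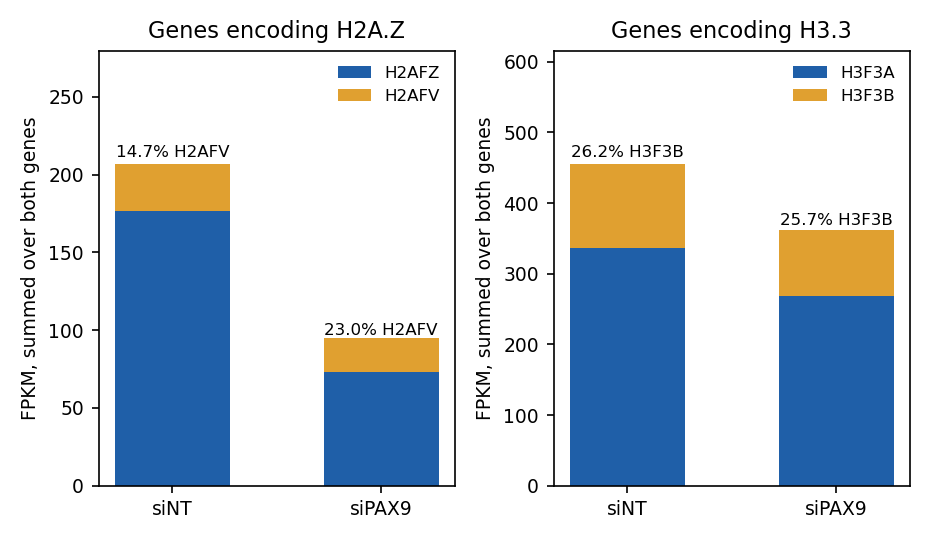
FPKM of the H2A.Z genes (left) and the H3.3 genes (right) stacked per group, as pooled values without error, with the share of the second gene above each bar. The H2AFV share is 14.7% in siNT and 23.0% in siPAX9, whereas the H3F3B share is 26.2% and 25.7%. Near-identical copies elsewhere in the genome are not included, and adding them changes the H3F3B share.

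Because the members of this pair differed, the 250 bases before the RefSeq start of each gene are shown, with those of H2AFX, a further H2A variant with a single start. H2AFY, also an H2A variant gene, had 2 starts and is not printed. Capitals mark CCAAT, the box bound by NF-Y, on either strand, so that a box on the other strand reads ATTGG. The sequences are from GRCh38.p14, 5′ to 3′ on the strand of the gene, which is the minus strand for each.
H2AFZ, chr4:99950276-99950525: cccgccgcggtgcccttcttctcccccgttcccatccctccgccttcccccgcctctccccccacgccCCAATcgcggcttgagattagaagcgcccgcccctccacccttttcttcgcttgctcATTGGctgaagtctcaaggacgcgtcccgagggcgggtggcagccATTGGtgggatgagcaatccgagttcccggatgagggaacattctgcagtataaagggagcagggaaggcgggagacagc
H2AFV, chr7:44848088-44848337: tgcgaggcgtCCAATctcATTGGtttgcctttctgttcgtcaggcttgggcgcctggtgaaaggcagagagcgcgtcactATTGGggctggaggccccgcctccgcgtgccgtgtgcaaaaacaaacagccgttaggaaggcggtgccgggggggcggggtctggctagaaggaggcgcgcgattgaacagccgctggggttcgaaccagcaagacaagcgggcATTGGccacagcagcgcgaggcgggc
H2AFX, chr11:119095466-119095715: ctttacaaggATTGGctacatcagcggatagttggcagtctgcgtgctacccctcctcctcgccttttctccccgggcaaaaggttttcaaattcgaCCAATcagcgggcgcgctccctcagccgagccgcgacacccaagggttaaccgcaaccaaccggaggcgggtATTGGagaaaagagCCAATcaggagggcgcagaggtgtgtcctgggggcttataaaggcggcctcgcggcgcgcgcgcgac
H2AFZ held 3 such boxes, and H2AFV and H2AFX held 4 each. Over the RefSeq windows of 300 bases (250 before and 50 after the start), 8 of the 9 genes with a window held CCAAT on either strand, against 34.6% of all 35116 windows. TATAAA was found in H2AFX, H2AFZ and H3F3B and in 11.5% of all windows. TTTGAA, the letters of the cell cycle homology region, was found in H2AFX and H2AFZ and in 15.2% of all windows. In H2AFZ it began at base 5 after the start, and in H2AFX it lay on the other strand, from base -164 relative to the start. The E2F letters TTTCCCGC, TTTCGCGC, TTTGCCGC and TTTGGCGC were searched together and found in CASP8AP2 alone, and in 3.31% of all windows. GCGTGACCA, one of several PAX9 binding sequences for which the study scanned, was in none of the 9 genes and in 0.157% of all windows. The other sequences of that scan, and bases farther upstream, were not searched here. No matches of different motifs overlapped. H3F3A had 4 windows and H2AFY had 2, so these genes had more sequence in which to hold a match.

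H2AFX encodes H2A.X, whose phosphorylated tail marks DNA double-strand breaks. It lies in a single exon (chr11:118964584-118966177, minus strand) and had 28.2 FPKM in siNT and 19.2 FPKM in siPAX9. The log2 ratio was -0.56, the second lowest of the 10 genes, and 17.6% of named loci lay lower. H2AFY encodes macroH2A1, a variant with a large additional domain that is associated with silenced chromatin. Its FPKM was 133 in siNT and 96.8 in siPAX9, a log2 ratio of -0.46. The row of H2AFY gives a position of 372 kb (chr5:134363423-134735577), while the annotated gene of 9 exons spans 65.5 kb. The rows of PITX1, C5orf66, C5orf66-AS1 and C5orf66-AS2 share that position, so it describes a stretch of neighbouring genes and not H2AFY alone.

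H3.3, the H3 variant laid down outside replication at active genes and at telomeres, is encoded by H3F3A and H3F3B, which specify the same protein. H3F3A (chr1:226250407-226259703, plus strand, 4 exons) had the highest level of the 10 genes, 336 FPKM in siNT and 269 FPKM in siPAX9. Its log2 ratio was -0.32. H3F3B (chr17:73772514-73776016, minus strand, 4 exons) had 120 FPKM in siNT and 92.7 FPKM in siPAX9, a log2 ratio of -0.37. The ratios of the pair differed by 0.04 on the log2 scale, in contrast to the 0.79 between the H2A.Z genes. H3F3B made up 26.2% of the summed H3.3 FPKM in siNT and 25.7% in siPAX9. This share depends on which near-identical copies are counted. With unnamed copies added it was 12.4% in siNT and 11.7% in siPAX9, as described below.

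H1F0 encodes the linker histone H1.0, a replacement H1 known to accumulate in cells that have stopped dividing or are differentiating. This single-exon gene (chr22:38201113-38203443, plus strand) had 28.9 FPKM in siNT and 32.9 FPKM in siPAX9, a log2 ratio of 0.19. It was the only variant gene above 0, and the only one above the centre after centring, with 0.26. In rank it lay above 69.0% of the named loci, within the middle range of all genes.

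The 3 regulators had lower levels than every variant gene in siNT. SLBP (chr4:1694457-1714468, minus strand, 8 exons) had 20.4 FPKM in siNT and 16.7 FPKM in siPAX9, a log2 ratio of -0.29. CASP8AP2 (chr6:90539618-90584155, plus strand, 9 exons) had 5.86 FPKM in siNT and 5.80 FPKM in siPAX9, a log2 ratio of -0.02. NPAT (chr11:108027083-108093365, minus strand, 18 exons) had 3.94 FPKM in siNT and 4.19 FPKM in siPAX9, a log2 ratio of 0.09. The median log2 ratio was -0.02 over these 3 genes and -0.46 over the 7 variant genes, and the ranges of the 2 classes overlapped. In siNT the order by FPKM was H3F3A, H2AFZ, H2AFY, H3F3B, H2AFV, H1F0, H2AFX, SLBP, CASP8AP2 and NPAT. In siPAX9 H2AFZ stood behind H2AFY and H3F3B, and H1F0 stood ahead of H2AFV. Without values for single samples it cannot be said which neighbours in these orders differ beyond their spread.

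**Figure D3:**
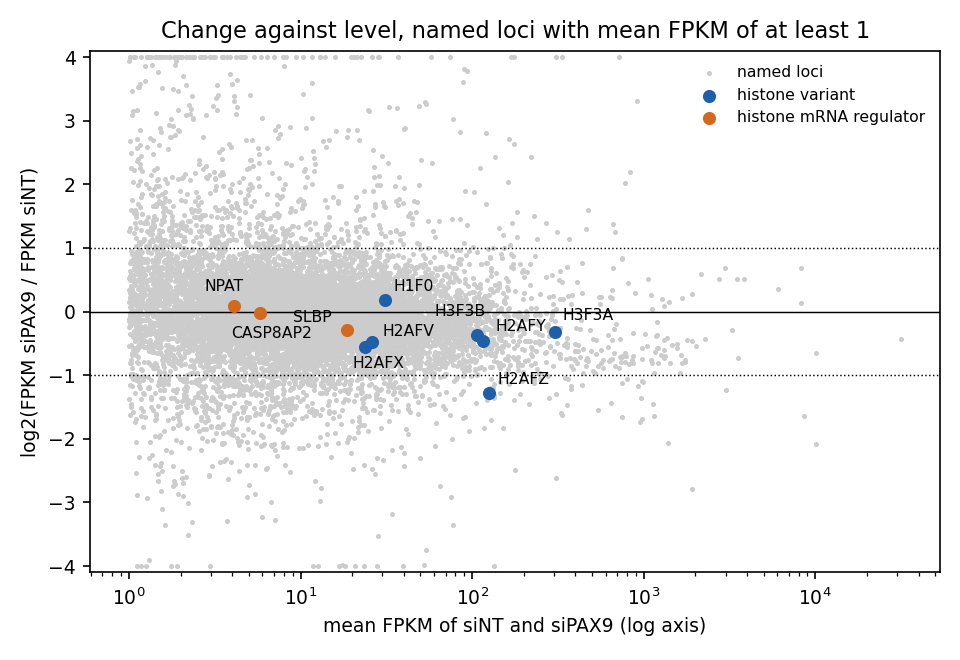
Log2 ratio of siPAX9 to siNT against the mean FPKM (log axis) for 12288 named loci (grey, values beyond 4 in either direction drawn at the edge), the 7 variant genes (blue) and the 3 regulators (orange), with dotted lines at a 2-fold difference. H2AFZ, at -1.27, is the only coloured point beyond a dotted line.

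H2AFZ, H2AFV, H3F3A and H3F3B have near-identical copies elsewhere in the genome, among which reads could have been divided. Loci of 200 to 2000 bases were compared with the transcripts of the 10 genes, and 6 matched at 95% identity or more. A locus without a symbol matched H2AFZ at 95.5% identity and had 135 FPKM in siNT and 54.9 FPKM in siPAX9, a log2 ratio of -1.30 beside -1.27 at H2AFZ itself. One on chromosome 15 matched H2AFV at 96.6% identity, with a log2 ratio of -0.43 beside -0.48. For H3F3A, 3 such loci were found. The one on chromosome 2 (chr2:175584523-175585587) matched at 99.9% identity and had 414 FPKM in siNT and 342 FPKM in siPAX9, above the FPKM of H3F3A in both groups. Its log2 ratio was -0.27. The one on the X chromosome had a ratio of -0.19, and the third, the least abundant with FPKM of 9.41 and 18.6, had a ratio of 0.98. H3F3C, an intronless relative of H3F3B, matched H3F3B at 96.1% identity, with 70.2 FPKM in siNT and 62.4 FPKM in siPAX9. Adding the FPKM of the unnamed copies to their genes gave log2 ratios of -1.28 for H2AFZ, -0.46 for H2AFV and -0.26 for H3F3A. It also changed the share of H3F3B in H3.3 mRNA to 12.4% in siNT and 11.7% in siPAX9. The summed level was 312 FPKM in siNT and 128 FPKM in siPAX9 for H2AFZ, 55.4 and 40.3 for H2AFV, and 842 and 702 for H3F3A. With H3F3C added to H3F3B as well, a sum chosen after the data were seen, H3F3B stood at 190 FPKM in siNT and 155 FPKM in siPAX9 (log2 ratio -0.29), and its share was 18.4% in siNT and 18.1% in siPAX9. The levels of these 4 genes, and with them the H3F3B share, are therefore uncertain. So is the order of levels. With all copies added, H3F3B stood ahead of H2AFY in both groups, and in siPAX9 H3F3B and then H2AFZ stood ahead of H2AFY, and H2AFV ahead of H1F0.

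The 10 genes were set beside the other genes with which they work, in lists of related genes limited to loci with a mean FPKM of at least 1. Among 7 other histone genes listed as variants, 6 were below 0, 1 was at least 2-fold lower and the median was -0.39. HIST1H2BK and HIST3H2A of this list are also counted with the replication-dependent genes. The gene at least 2-fold lower was CENPA, the H3 variant of the centromere. It had 9.28 FPKM in siNT and 2.42 FPKM in siPAX9, a log2 ratio of -1.94. Among 15 genes listed for the 3′ end processing of histone pre-mRNA, 2 were at least 2-fold lower and the median was -0.29. These were SNRPF (-1.06) and SNRPE (-1.05), Sm proteins that the U7 particle shares with the spliceosome. LSM11 and LSM10 are subunits particular to the U7 particle. LSM11 had a ratio of 0.02, while the other 14 genes of the list were below 0. LSM10, named here after its value was seen, had a ratio of -0.28. Among 9 genes of histone mRNA translation and decay, ZCCHC6, a uridylyltransferase, was at least 2-fold higher, with 11.5 FPKM in siNT and 26.4 FPKM in siPAX9 (log2 ratio 1.20), and the median was -0.05. None of 9 genes of histone locus transcription differed at least 2-fold, and their median was -0.02.

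**Figure D4:**
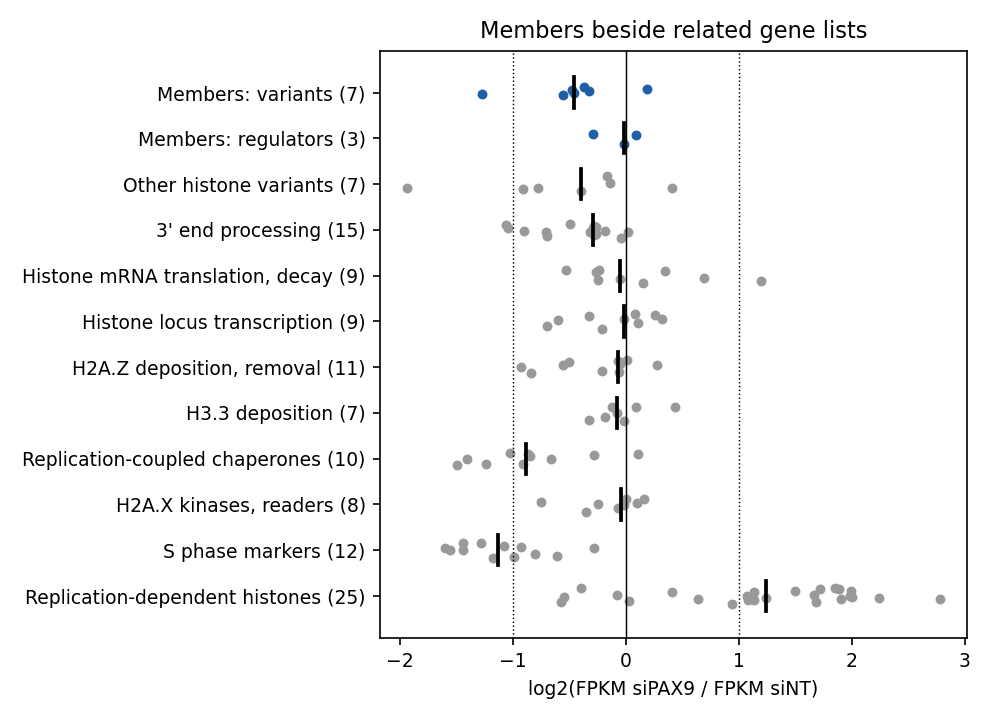
Log2 ratio of siPAX9 to siNT for the variant and regulator genes (blue) and for loci of the related lists (grey, number of loci in brackets), with a black bar at each median and dotted lines at a 2-fold difference. The bars of the replication-coupled chaperones (-0.89) and S phase markers (-1.13) lie to the left, and that of the replication-dependent histones (1.24, with 7 of 25 loci below 1 FPKM in siNT) to the right.

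Separate sets of factors place variants into chromatin and place newly made histones behind the replication fork. None of 11 genes for H2A.Z deposition and removal differed at least 2-fold (median -0.07). The lowest was ANP32E, which removes H2A.Z, with a log2 ratio of -0.93, a gene named here after its value was seen. None of 7 genes for H3.3 deposition differed at least 2-fold (median -0.08), and ATRX had a ratio of -0.02. Among 8 kinases, phosphatases and readers of H2A.X, none differed at least 2-fold (median -0.04), and RNF168 had an FPKM of 7.69 in both groups. EYA1, also on this list, had 1.23 FPKM in siNT and 0.275 FPKM in siPAX9, which left its mean below 1. By contrast, 4 of 10 replication-coupled chaperone genes were at least 2-fold lower (median -0.89). They were ASF1B (-1.49) and CHAF1B (-1.41), which hand over new H3 and H4, TONSL (-1.24), which binds new histones at the fork, and NASP (-1.03), which holds the soluble pool. Of 12 S phase markers, 7 were at least 2-fold lower (median -1.13), the lowest being CCNA2 (-1.60) and MCM2 (-1.56). Whether cell cycle position has a part in the values of H2AFZ and the other variant genes was not tested.

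Replication-dependent histone genes, the mRNAs on which SLBP, NPAT and CASP8AP2 act, had 25 loci with a mean FPKM of at least 1 in this poly(A)+ RNA. At least 2-fold higher in siPAX9 were 17 of them and at least 2-fold lower 0, but 7 of the 25 were below 1 in siNT and passed only through siPAX9. Of the 18 loci with at least 1 FPKM in both groups, 10 were at least 2-fold higher and 4 were below 0. The 4 highest log2 ratios were those of HIST1H4H (2.79), HIST1H2BG (2.25), HIST1H2BC (2.00) and HIST1H4E (1.99), of which HIST1H2BG and HIST1H4E were below 1 FPKM in siNT. Of the genes whose stem-loops are printed, HIST1H1C had 19.8 FPKM in siNT and 78.7 FPKM in siPAX9, HIST1H2BK had 58.4 and 77.5, and HIST3H2A had 42.8 and 32.6. H2AFX, at -0.56, lay below 0, as did 4 of the 18 loci with at least 1 FPKM in both groups. The median of these 18 loci was 1.08 and their lowest value was -0.58.

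The labels of the samples were compared with PAX9 itself and with markers. PAX9 had 2.80 FPKM in siNT and 0.325 FPKM in siPAX9, a log2 ratio of -3.10. Each of 9 markers of breast epithelium, not all of them particular to basal cells, was present. Their summed FPKM was 3773 in siNT and 4412 in siPAX9, most of it from KRT5 and KRT17. Among these 9, CDH1 was at least 2-fold higher (45.3 in siNT and 124 in siPAX9) and EPCAM at least 2-fold lower (34.3 and 16.7). Of 12 markers of fibroblasts, leukocytes and endothelium, 8 were under 0.1 in both groups, among them PTPRC, CD3E, COL3A1 and CDH5. Summed FPKM was 6.31 in siNT and 42.1 in siPAX9 for fibroblasts, 14.5 and 56.6 for leukocytes, and 2.58 and 0.516 for endothelium. The 4 markers above that level were DCN (5.85 in siNT and 37.9 in siPAX9), CD14 (14.4 and 56.5), COL1A1 (0.454 and 4.13) and PECAM1 (2.58 and 0.495). Their part in the values of the 10 genes was not tested.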

How the data were processed

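RNA-seq of 3 siNT and 3 siPAX9 samples of MCF10A cells was used. The authors aligned single-end reads of poly(A)+ libraries to UCSC hg19 with Bowtie 2, quantified them with Cufflinks within Partek Flow, and deposited 1 FPKM value per locus and group, combining the samples. How libraries were scaled against each other is not given in the sources used here, and depth per sample is not in the table. The authors' own comparison columns (fold change, test statistic, p-value, q-value and a significance flag) were not used.

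Of 41656 loci, 27678 carried a symbol. For a symbol with several rows, the row with the highest mean FPKM was kept. Log2 ratios of siPAX9 to siNT were computed from FPKM without a pseudocount. Named loci with a mean FPKM of at least 1 and above 0 in both groups served as background. Another 117 that were listed at 0 in one group (65 in siNT and 52 in siPAX9) have no ratio and were left out. The 2-fold limit is that of the study's methods, which also set a limit on the q-value that was not applied here. No test was run, since the table gives 1 value per group and none per sample. All 10 genes were to be named, with PAX9 and, from each list, up to 4 of the largest differences of at least 2-fold and up to 2 of the smallest. The genes and lists were chosen with earlier results of these data known, and the stem-loop search, the choice of promoters shown, and the length and identity limits of the locus search were set after values were seen (a looser locus search gave short hits to H2AFV).

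GENCODE v44 placed on GRCh37 gave annotation and transcripts, and each of the 10 loci overlapped its annotated gene. Loci were compared with blastn 2.17.0 (word size 28, at least 80% of the locus covered). Promoter windows were taken from RefSeq on GRCh38.p14 for 9 of the 10 genes, matched by symbol or synonym. Counting and the stem-loop search were tested on simulated data. Python 3.11.15, pandas 2.3.3, numpy 2.4.6 and matplotlib 3.10.9 were used.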

Additional observations from a re-analysis of the deposited data

How the results depend on the processing

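The deposited table gives neither the fragments behind each FPKM nor values for single samples, so leaving out a replicate could not be done. No paired analysis was possible because the deposited values combine the samples of each group. The median log2 ratio of the 10 genes ranged from -0.35 to -0.28 over the alternatives (1 or 0.1 added to each FPKM, centring, rows summed, rows with a single symbol, unnamed copies added, all copies added), and the count at least 2-fold lower was 1 under each of them. With a fold of 4 that count was 0. The share of named loci at least 2-fold lower was 6.55% as reported, 16.5% with a fold of 1.5 and 1.09% with a fold of 4. The share at least 2-fold higher was 6.22% as reported, 13.0% with a fold of 1.5, 2.21% with a fold of 4, 13.9% without a filter on low values, 3.35% with a mean FPKM of at least 10, and 12.4% with unnamed loci included. With unnamed copies added, the share of H3F3B in H3.3 FPKM was 12.4% in siNT and 11.7% in siPAX9, because the copies match H3F3A. With H3F3C also added, an alternative chosen after seeing the data, it was 18.4% and 18.1%. The median log2 ratio of the named loci ranged from -0.13 (mean FPKM of at least 10) to 0.01 (without a filter on low values). For the single genes, none of the alternatives moved a log2 ratio by more than 0.1.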
